A study of Mus musculus with 10 samples.

Results

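Muscle stem cells that had spent 24 h in culture with Tubastatin A were compared with muscle stem cells taken directly from the animal, across all 12803 genes of the deposited expression table. The comparison used 7 of the 10 libraries of the series: 4 of Tubastatin A cultures and 3 of fresh cells, chosen by their labels and not by any measured value. All cells came from limb muscles of young male C57BL/6 mice, 1 animal per library, and were sorted for VCAM and against CD45, CD31 and Sca1 (VCAM+, CD45-, CD31-, Sca1-). Fresh cells were collected at 0 h. Tubastatin A cultures were kept for 24 h in Ham's F-10 medium with 10% horse serum on plates coated with extracellular matrix, with 40 µM Tubastatin A dissolved in DMSO. The 3 vehicle libraries, cells kept for the same 24 h with an equal volume of DMSO, are given beside the comparison. Fresh cells had neither the plate, the serum nor the inhibitor. Their treatment label reads vehicle at 0 h and they were grouped as fresh by their titles, so contact with DMSO is not settled. Culture and Tubastatin A cannot be told apart within this comparison, and vehicle values are the only guide to culture alone.

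Adult muscle stem cells, also called satellite cells, lie between the muscle fibre and its basement membrane in quiescence, a reversible state outside the cell cycle that Notch, collagen and calcitonin receptor signals maintain. Taking them out of the tissue by enzyme digestion and sorting starts their activation, with a burst of stress and immediate early transcripts, and culture in serum then drives them towards DNA replication. Tubastatin A inhibits HDAC6, a cytoplasmic deacetylase of alpha-tubulin that also binds ubiquitin and serves the disposal of misfolded proteins. The series was made around Tubastatin A as a means to keep the cells quiescent. The question here is which transcripts of the treated cells still stood away from those of fresh cells. Hdac6 itself, the drug's target, was at 8.43, 6.67 and 7.97 RPKM (reads per kilobase of gene, scaled to library size) in fresh and at 7.40, 6.33, 5.74 and 6.92 RPKM in Tubastatin A libraries. These ranges overlapped, and the difference was -0.19 on the log2 scale (SE 0.12, adjusted p = 0.17), and -0.28 (SE 0.11, adjusted p = 0.046) without fresh replicate 2. It turned to 0.41 (adjusted p = 0.00614) when each library was scaled by its reads in the table. The inhibitor acts on the protein, so this level checks no label.

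The libraries held between 37516747 and 55264291 recovered reads in the table, so that 1 read in a gene of 1 kb was worth 0.016 to 0.0339 RPKM. Differences are log2(RPKM + 1) in Tubastatin A minus fresh cells, given with their standard error (SE) and with adjusted p from a limma fit over all genes. The pseudocount of 1 RPKM understates changes of genes with low levels. Reads in the table were 1.39 to 1.41 times the size the authors divided by in fresh libraries, and 0.83 to 0.93 times in cultured ones. Dividing by the reads in the table instead raised the mean scaling factor of Tubastatin A over fresh libraries by 0.689 on the log2 scale. With the pseudocount, this shift is smaller at low levels. Groups whose direction turned under that scaling are named as such. Fresh libraries stood further apart from each other than Tubastatin A libraries did. Fresh replicate 1 exceeded each of the other fresh libraries by 2-fold or more in 202 genes and at least 2-fold below both in 150. Among Tubastatin A libraries, replicate 2 was at least 2-fold above the other 3 in 118 genes, against 3 to 23 genes for the others. RNA of whole samples was measured, so fewer cells of a type and less RNA per cell cannot be told apart.

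Most genes differed between treated and fresh cells by the test, and fewer did so by 2-fold or more. Of the 12803 genes, 8314 (64.9%) passed an adjusted p of 0.05, of which 3811 (29.8%) were higher and 4503 (35.2%) lower with Tubastatin A. At least 2-fold differences passed in 3062 genes (23.9%), with 1049 (8.19%) higher and 2013 (15.7%) lower. The 4 Tubastatin A libraries did not overlap with the 3 fresh libraries in 7853 genes (61.3%). Scaled by the reads in the table, 6916 genes (54%) were higher and 2590 (20.2%) lower, so the balance of directions, unlike the number of differences, turned with the scaling. Tubastatin A against vehicle, both at 24 h, gave 7594 genes (59.3%), 3796 higher (29.6%) and 3798 lower (29.7%). Vehicle against fresh gave 8580 genes, 4484 of them (35%) lower. These 3 comparisons share libraries, so their values are set side by side without a count of common genes.

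**Figure D1:**
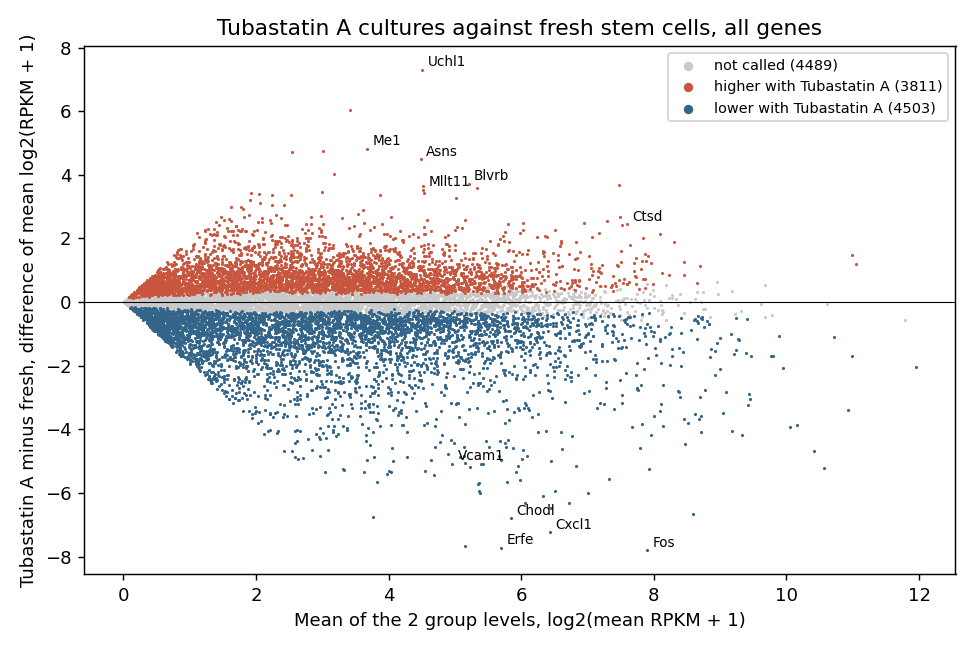
Each point is 1 of 12803 genes: the horizontal axis is the mean level of fresh and Tubastatin A libraries as log2(mean RPKM + 1), the vertical axis the difference of mean log2(RPKM + 1), Tubastatin A minus fresh. Coloured points passed an adjusted p of 0.05, 3811 higher and 4503 lower; Uchl1 stands highest and Fos lowest among the labelled genes.

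The 10 genes that rose furthest above fresh cells were Uchl1, Me1, Asns, Blvrb, Esd, Pgd, Gsr, Mllt11, Lgals3 and Slc48a1. Only genes without overlap between treated and fresh libraries were eligible, so the lack of overlap was fixed by the choice. Uchl1, a deubiquitinating enzyme abundant in neurons, read 0.717, 0.913 and 0.809 RPKM in fresh cells and 253, 272, 321 and 294 RPKM with Tubastatin A. Each treated library was far above each fresh one, a log2 change of 7.30 (SE 0.12, adjusted p = 5.1e-12), with 7.03 ± 1.16 RPKM in vehicle. Asns, the enzyme that makes asparagine, was at 1.48, 6.03 and 4.23 RPKM in fresh and 122, 106, 81.2 and 96.3 RPKM in treated libraries. It rose by 4.49 (SE 0.28, adjusted p = 6.6e-08). Me1, the cytosolic malic enzyme that yields NADPH, was at 1.02, 1.39 and 1.83 RPKM in fresh and 67.1, 66.8, 65.0 and 65.5 RPKM in treated libraries. The treated libraries lay close together and far above all fresh ones, with a log2 change of 4.81 (SE 0.12, adjusted p = 6.7e-11), and vehicle stood between the groups at 20.1 ± 1.55 RPKM. Blvrb, a biliverdin reductase of haem breakdown, rose by 3.72, from 9.28 ± 2.64 RPKM to 132 ± 11.1 RPKM. Slc48a1, a haem transporter of lysosomal membranes, rose by 3.26, from 9.43 ± 0.639 RPKM to 99.1 ± 4.95 RPKM. Other genes among the 10 highest were Lgals3, the galectin that binds damaged lysosomes, with a log2 change of 3.43, Esd, an esterase, with 3.70, and Mllt11 with 3.53. In vehicle, Lgals3 stood at 30.1 ± 4.55 RPKM against 6.15 ± 1.70 RPKM in fresh and 74.7 ± 2.07 RPKM in treated cells. Slc48a1 was higher in vehicle than in treated libraries, at 132 ± 8.46 RPKM, with -0.41 for Tubastatin A minus vehicle (adjusted p = 0.0036). Asns, Esd and Gsr stood at 93.4 ± 6.26, 447 ± 21.9 and 119 ± 2.34 RPKM in vehicle. These 3 did not pass between Tubastatin A and vehicle (adjusted p = 0.78, 0.14 and 0.075). Uchl1, Me1, Blvrb, Pgd, Mllt11 and Lgals3 were higher with Tubastatin A than with vehicle.

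The 10 genes that fell furthest were Fos, Erfe, Cxcl1, Chodl, Hspa1a, Nr4a1, Cebpd, Gas1, C1qtnf3 and Nppc. Fos, a subunit of the AP-1 transcription factor, was at 6344, 2789 and 2137 RPKM in fresh and at 13.5, 13.1, 13.9 and 16.1 RPKM in treated libraries. Even the lowest fresh library was far above the highest treated one, and Fos fell by 7.80 on the log2 scale (SE 0.28, adjusted p = 8.8e-10). Fresh replicate 1 held the highest Fos value, and without it the difference was -7.34 (SE 0.12, adjusted p = 4.7e-11). Cxcl1, a chemokine for neutrophils, was at 929.6, 1498 and 792 RPKM in fresh and 5.69, 6.51, 6.18 and 5.22 RPKM in treated libraries and fell by 7.23 (SE 0.19, adjusted p = 9.8e-11). Chodl, a C-type lectin of the cell surface, was at 603, 579 and 625 RPKM in fresh and 4.94, 4.16, 3.64 and 5.20 RPKM in treated libraries, and fell by 6.79 (SE 0.12, adjusted p = 8.5e-12). As among the genes that rose, only genes without overlap were eligible for the 10. Erfe, the hormone erythroferrone, fell by 7.72, from 768 ± 264 RPKM to 2.51 ± 0.166 RPKM. Nppc, the C-type natriuretic peptide, fell by 5.99, from 1059 ± 515 RPKM to 14.5 ± 0.738 RPKM. Gas1, a membrane protein that binds hedgehog ligands, fell by 6.30, from 609.5 ± 288 RPKM to 6.25 ± 0.789 RPKM. Cebpd, a transcription factor of the acute phase response, was at 1026, 1056 and 733 RPKM in fresh and 11.3, 9.81, 10.1 and 12.0 RPKM in treated libraries and fell by 6.30. C1qtnf3, a secreted relative of adiponectin, was at 479, 339.6 and 309.9 RPKM in fresh and 1.62, 60.6, 1.17 and 1.57 RPKM in treated libraries, where replicate 2 stood far above the other 3, and fell by 6.08 (SE 0.92, adjusted p = 1.1e-04). In vehicle, levels stood at 8.84 ± 1.17 RPKM for Erfe, 1.05 ± 0.318 RPKM for Nppc and 63.7 ± 5.77 RPKM for Gas1. Fos, Cxcl1, Chodl, Nr4a1 and Cebpd were low in vehicle too, at 7.15 ± 0.301, 5.17 ± 0.844, 2.39 ± 0.393, 4.80 ± 0.645 and 8.67 ± 1.39 RPKM. Between Tubastatin A and vehicle, Cxcl1, Nr4a1 and Cebpd did not pass. Erfe, Gas1 and C1qtnf3 were lower with Tubastatin A than with vehicle, and Fos, Chodl, Hspa1a and Nppc were higher.

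Gene groups were described with 58 lists, by how many measured members passed the test in each direction and by the median difference, beside -0.033 over all genes. More members were lower than higher in 43 lists and more were higher in 14. Scaled by the reads in the table, these numbers became 33 and 23. Member counts below are to be read against all genes, of which 29.8% were higher and 35.2% lower. With the reads in the table as scaling, these shares were 54% and 20.2%. For Tubastatin A against vehicle under the authors' scaling, 29.6% of all genes were higher and 29.7% lower. For vehicle against fresh, 35% of all genes were lower. The medians ranged from the proteasome at the top to immediate early genes at the bottom.

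**Figure D2:**
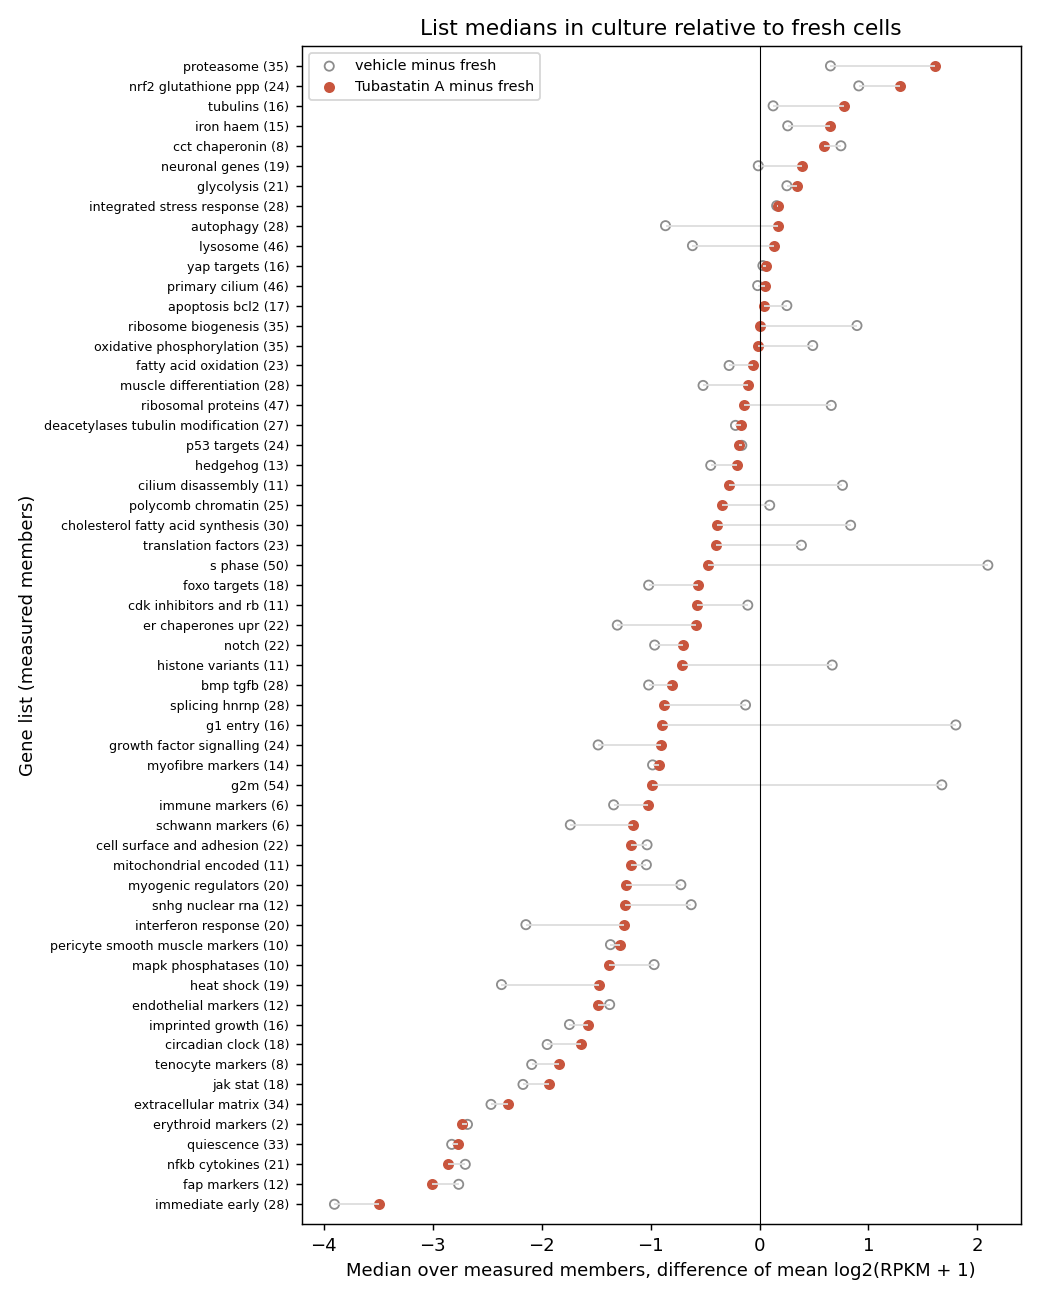
Each row is a gene list with its number of measured members; the horizontal axis is the median over members of the difference of mean log2(RPKM + 1), filled points for Tubastatin A minus fresh and open points for vehicle minus fresh, both against the same 3 fresh libraries. The proteasome list has the highest Tubastatin A median (1.61) and immediate early genes the lowest (-3.49), while S phase genes lie at -0.47 with Tubastatin A and at 2.10 with vehicle.

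Transcripts that mark the quiescent stem cell were low in treated cells. Of 33 measured quiescence genes, 32 fell, with a median of -2.76, against 31 and a median of -2.82 in vehicle minus fresh. Myf5, the myogenic factor whose transcript quiescent cells keep in store, was at 283, 235 and 227 RPKM in fresh and 6.74, 6.04, 5.78 and 6.90 RPKM in treated libraries. The treated libraries all lay far below every fresh one, and Myf5 fell by 5.08 (SE 0.11, adjusted p = 4.0e-11). In vehicle it stood at 34.1 ± 2.21 RPKM, so the treated level was the lower of the cultures, with -2.25 for Tubastatin A minus vehicle (adjusted p = 1.9e-08). Pax7, the transcription factor that defines the lineage, was at 33.2, 15.3 and 18.8 RPKM in fresh and 2.08, 2.15, 2.65 and 1.68 RPKM in treated libraries. It fell by 2.83 (SE 0.22, adjusted p = 3.7e-07) with no overlap, although fresh replicate 1 was well above both other fresh libraries. Vehicle held 4.73 ± 0.609 RPKM of Pax7. Calcr, the calcitonin receptor that keeps the cells out of the cycle, was at 98.1, 55.0 and 90.5 RPKM in fresh and 2.45, 2.45, 1.84 and 2.54 RPKM in treated libraries, and fell by 4.59 (SE 0.18, adjusted p = 1.6e-09). Spry1, an inhibitor of growth factor signalling, was at 632, 362 and 416 RPKM in fresh and 26.6, 25.9, 19.5 and 24.1 RPKM in treated libraries and fell by 4.20 (SE 0.18, adjusted p = 2.8e-09). The remaining member of the list, Sdc3, a heparan sulfate proteoglycan, differed from fresh by -0.49 and did not pass (adjusted p = 0.18), but without fresh replicate 2 the difference was -0.88 (SE 0.25, adjusted p = 0.01).

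Cdkn1c, which encodes the cyclin-dependent kinase inhibitor p57, lay between fresh cells and vehicle. Its level was 76.7, 125 and 77.9 RPKM in fresh and 13.3, 17.0, 9.89 and 15.1 RPKM in treated libraries, with no overlap, and it fell by 2.66 (SE 0.20, adjusted p = 3.3e-07). Vehicle libraries held 2.11, 1.61 and 1.59 RPKM, below all treated ones, and Tubastatin A minus vehicle was 2.40 (adjusted p = 1.2e-06). Of 11 measured CDK inhibitor and retinoblastoma genes, 6 fell and 3 rose with Tubastatin A relative to fresh, and 1 rose without treated replicate 2 or without treated replicate 3. Cdkn1a, encoding p21, fell by 1.41, and Cdkn2b, encoding p15, rose by 1.69, from 3.86 ± 0.878 RPKM to 14.7 ± 2.50 RPKM.

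Surface, Notch and niche genes were low as well. Vcam1, the protein on which the cells had been sorted, was at 179, 167 and 194 RPKM in fresh and 4.61, 4.35, 3.78 and 4.70 RPKM in treated libraries. Every treated library was far below every fresh one, and Vcam1 fell by 5.08 (SE 0.10, adjusted p = 2.6e-11). The sort was done before culture, so both groups began from VCAM+ cells. In vehicle Vcam1 was at 34.0 ± 2.24 RPKM, higher than in treated libraries. Of 22 cell surface and adhesion genes, 16 fell and 3 rose. Cd34, a sialomucin of quiescent satellite cells, fell by 3.21, and Cdh15, the cadherin that holds them to the fibre, fell by 2.47, from 254 ± 57.5 RPKM to 44.3 ± 3.31 RPKM. The 3 that rose were the integrin subunits Itga3 (1.94) and Itgav (1.20) and the cadherin Cdh2 (0.78). Of 22 Notch pathway genes, 19 fell and 1 rose, and with the reads in the table as scaling 9 fell and 3 rose. Heyl, a repressor that Notch induces, was at 285, 188 and 225 RPKM in fresh and 9.92, 10.8, 10.5 and 9.53 RPKM in treated libraries, with no overlap and a log2 change of -4.37 (SE 0.13, adjusted p = 2.6e-10). The receptor Notch3 fell by 4.14, and the ligand Jag2 rose by 1.12, from 2.21 ± 1.11 RPKM to 5.78 ± 1.42 RPKM.

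Transcripts of the extracellular matrix were lower too. Of 34 extracellular matrix genes, 31 fell, with a median of -2.31, and Lamb1, Nid1 and Vcan did not pass. Scaled by the reads in the table, 28 fell, and Nid1 was 0.53 above fresh and passed. Col3a1, a fibrillar collagen, was at 605, 192 and 425 RPKM in fresh and 6.72, 8.90, 4.87 and 5.52 RPKM in treated libraries. Its treated libraries were all far below the fresh ones, with a log2 change of -5.65 (SE 0.31, adjusted p = 2.7e-08). Col5a3, a chain of collagen V, which is a ligand of Calcr, fell by 3.00, and Sparc, a collagen-binding protein, fell by 3.42, from 896 ± 119 RPKM to 82.9 ± 12.1 RPKM. Markers of fibro-adipogenic progenitors, the connective tissue cells of muscle, moved in the same direction: 10 of 12 fell, and their summed level was 1810 to 2259 RPKM in fresh, 71.3 to 86.3 in vehicle and 90.4 to 124.1 in treated libraries. Their part in the matrix result was not tested.

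**Figure D3:**
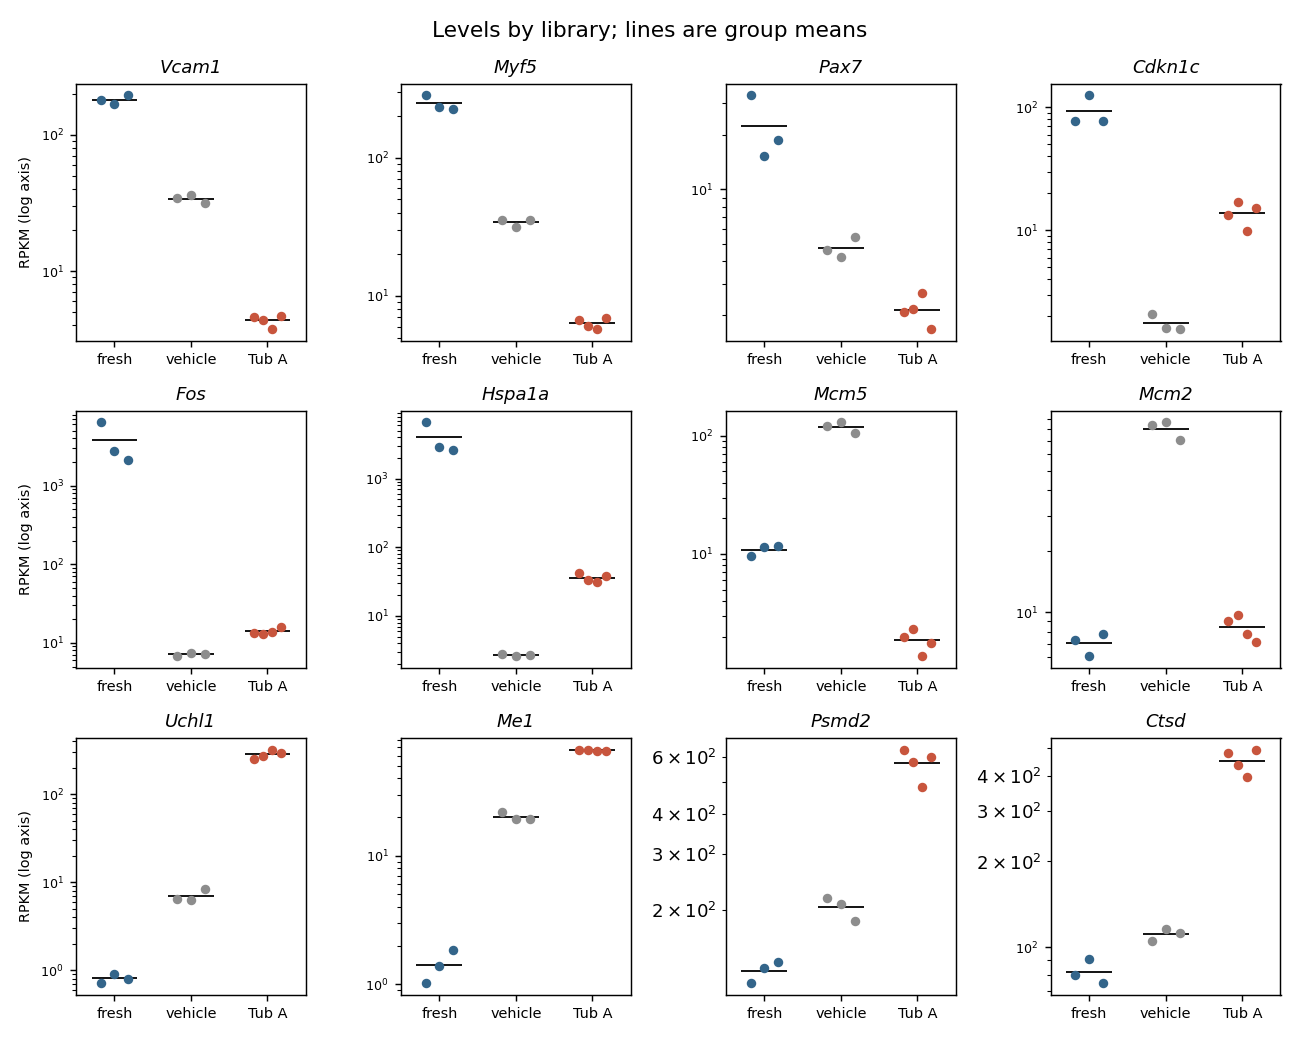
Each panel gives the RPKM of 1 gene on a logarithmic axis, with 1 point per library for 3 fresh, 3 vehicle and 4 Tubastatin A libraries and a line at the group mean. Vcam1, Myf5, Pax7, Fos and Hspa1a are low in all treated libraries, Mcm2 is near fresh while vehicle is high, and Uchl1, Me1, Psmd2 and Ctsd are highest in treated libraries.

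Regulators of the muscle lineage were mostly lower. Of 20 such genes, 16 fell, and Myod1, Mef2a, Mef2c and Tcf3 did not pass. Scaled by the reads in the table, 11 fell and 3 rose, among them Mef2a by 0.48. Mef2c passed without treated replicate 2, at -0.23 (SE 0.05, adjusted p = 0.0025), and Tcf3 without fresh replicate 1, at 0.41 (SE 0.09, adjusted p = 0.0022). Myod1, the factor that marks activated cells, was at 272, 1071 and 928 RPKM in fresh and 501, 530.1, 567 and 559 RPKM in treated libraries. Fresh replicate 1 lay below all treated libraries and the other 2 fresh libraries above them, so the ranges overlapped, with a difference of -0.26 (SE 0.38, adjusted p = 0.56). Without fresh replicate 1 the difference was -0.89 (SE 0.14, adjusted p = 2.2e-04), and treated libraries were all lower. Msc, a repressor that competes with Myod1, fell by 5.60, from 448 ± 136 RPKM to 7.95 ± 0.891 RPKM. Id3, an inhibitor of myogenic factors under BMP control, fell by 3.58, from 1450.3 ± 211 RPKM to 121 ± 19.2 RPKM. Of 28 BMP and TGF-beta genes, 22 fell and 1, Tgfb1, rose by 0.78, and under scaling by table reads 13 fell and 3 rose. Chrdl2, a secreted BMP antagonist, fell by 5.94, from 320.4 ± 66.6 RPKM to 4.24 ± 0.967 RPKM.

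A single treated library, replicate 2, held high levels of muscle differentiation transcripts. Myog, the factor that commits myoblasts to fuse, was at 85.3, 96.5 and 68.7 RPKM in fresh and at 1.99, 195, 1.68 and 2.05 RPKM in treated libraries. Replicate 2 lay above all fresh libraries and the other 3 treated libraries far below them, and the difference over all 4 was -3.33 (SE 1.20, adjusted p = 0.028). Without replicate 2, the difference in Myog was -4.85 (SE 0.21, adjusted p = 2.2e-08). With replicate 2 kept, the call of Myog was lost when any 1 of the other 6 libraries was left out, with differences between -3.46 and -2.78. Acta1, the actin of muscle fibres, was at 39.1, 36.0 and 34.6 RPKM in fresh and 3.28, 311, 3.18 and 3.89 RPKM in treated libraries. Again replicate 2 stood above the fresh libraries and the others below. The difference was -1.55 (adjusted p = 0.28) with replicate 2 and -3.08 (SE 0.17, adjusted p = 1.1e-07) without it. Of 28 muscle differentiation genes, 6 fell and 1 rose, and without replicate 2 it was 18 and 1. For 14 markers of muscle fibres, 6 fell with and 14 without that library, and their summed level was 8.59 RPKM in the lowest and 451.4 RPKM in the highest treated library, against 100.2 to 132.3 in fresh ones. Where the transcripts of replicate 2 came from was not tested. Without that library, 32 of 33 quiescence genes fell and 33 of 35 proteasome genes rose, against 32 and 34 with it.

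**Figure D4:**
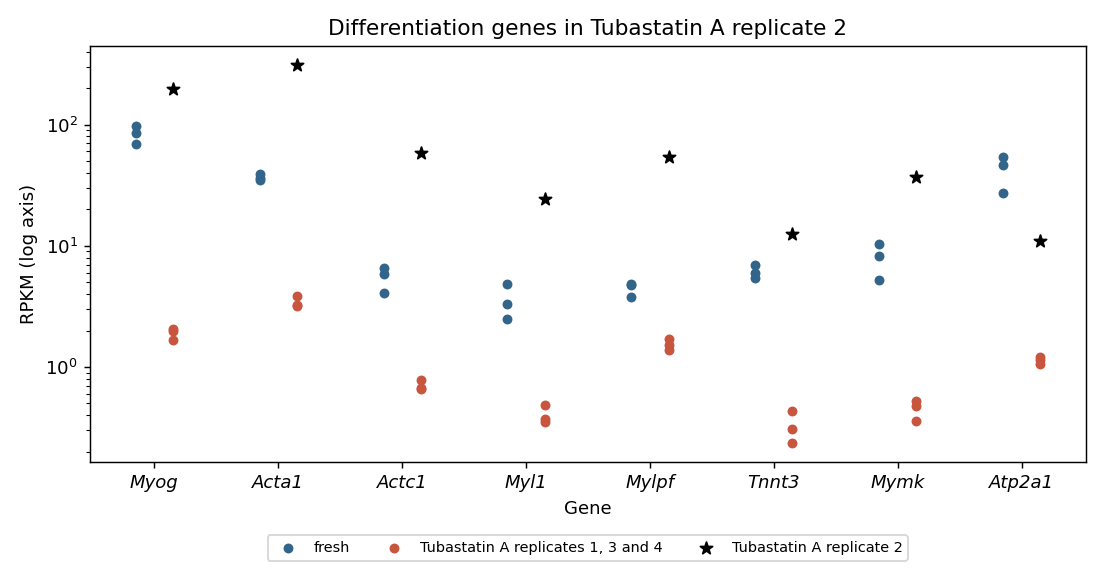
RPKM on a logarithmic axis of 8 muscle differentiation and muscle fibre genes, with 1 point per library: 3 fresh libraries, Tubastatin A replicates 1, 3 and 4, and Tubastatin A replicate 2 as a star. Replicate 2 is above the other 3 treated libraries in all 8 genes and above the fresh libraries in each of them but Atp2a1.

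More genes of DNA replication and mitosis were lower than higher relative to fresh cells. Of 50 S phase genes, 30 fell and 5 rose, with a median of -0.47. With the reads in the table as scaling, 19 fell and 14 rose, with a median of -0.10. Under the authors' scaling the median compares with 2.10 in vehicle minus fresh. Mcm5, a subunit of the replicative helicase, was at 9.55, 11.5 and 11.6 RPKM in fresh and 1.99, 2.31, 1.37 and 1.76 RPKM in treated libraries, against 120.2, 129 and 106 RPKM in vehicle. Treated libraries were thus below fresh and vehicle libraries above, and Mcm5 fell by 2.06 (SE 0.13, adjusted p = 8.9e-08). Mcm2, its partner subunit, was at 7.26, 6.08 and 7.81 RPKM in fresh and 9.08, 9.65, 7.85 and 7.11 RPKM in treated libraries. These ranges overlapped, with a difference of 0.22 (adjusted p = 0.15), while vehicle stood at 80.4 ± 8.58 RPKM. Gins3, a subunit of the helicase's partner complex, rose by 1.69, from 1.14 ± 0.404 RPKM to 5.85 ± 0.444 RPKM. Of 54 G2 and M phase genes, 46 fell and 2 rose (40 and 3 when scaled by the reads in the table), with a median of -0.99, against 1.67 in vehicle. Ccnb2, the cyclin of mitotic entry, was at 11.7, 9.11 and 7.23 RPKM in fresh and 0.775, 2.20, 0.995 and 0.804 RPKM in treated libraries and fell by 2.26 (SE 0.24, adjusted p = 5.7e-06). Mki67, the proliferation marker, was already low at 1.25, 0.899 and 1.09 RPKM in fresh cells and stood at 0.0382, 0.178, 0.0395 and 0.0241 RPKM in treated ones. The 2 that rose were Gtse1, a regulator of p53 in G2 phase, by 1.51, and the checkpoint gene Bub3 by 0.96.

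Of 16 genes that take cells out of quiescence into G1, 10 fell and 3 rose relative to fresh, and under scaling by table reads 7 fell and 5 rose. Ccnd1, cyclin D1, was at 15.4, 8.56 and 8.90 RPKM in fresh and 1.83, 1.70, 2.42 and 2.17 RPKM in treated libraries, with 45.8 ± 8.88 RPKM in vehicle. Its libraries did not overlap, and Ccnd1 fell by 1.94 (SE 0.20, adjusted p = 4.1e-06). Ccnd3, the cyclin D of differentiating muscle, fell by 2.46, and Myc, the growth regulator, fell by 1.59, from 1179.9 ± 353 RPKM to 379 ± 33.1 RPKM. The 3 that rose were Cdc25a, a phosphatase that activates CDK2, by 1.22, Ccnd2 by 0.97 and Cdk6 by 0.32, a call lost without fresh replicate 2 (0.30), fresh replicate 3 (0.31) or treated replicate 3 (0.25). Of 24 growth factor signalling genes, 16 fell and 4 rose (13 and 5 with that scaling). Fgfr4, the fibroblast growth factor receptor of satellite cells, fell by 4.56, from 267 ± 72.8 RPKM to 10.1 ± 0.827 RPKM, while Spred2, an inhibitor of MAP kinase signalling, rose by 0.82, from 3.07 ± 0.685 RPKM to 6.17 ± 1.04 RPKM.

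Transcripts known to rise with stress and inflammation were much higher in fresh cells than in treated ones. Of 28 immediate early genes, 26 fell with Tubastatin A, with a median of -3.49, and Ier3 and Klf10 did not pass. Ier3 passed without fresh replicate 1 (-0.49) and Klf10 without fresh replicate 2 (-0.36). Klf10 was 0.41 above fresh and passed when scaled by the reads in the table. Nr4a1, an orphan nuclear receptor, was at 1559, 485 and 569.8 RPKM in fresh and 8.60, 6.99, 6.69 and 8.40 RPKM in treated libraries. It fell by 6.45 (SE 0.31, adjusted p = 9.2e-09), and fresh replicate 1 was again the highest. Of 19 heat shock genes, 15 fell and 4 rose. Hspa1a, an inducible HSP70 whose reads may not be separable from those of Hspa1b, was at 6606, 2889 and 2623 RPKM in fresh and 41.7, 33.3, 30.8 and 37.6 RPKM in treated libraries. It fell by 6.65 (SE 0.26, adjusted p = 1.6e-09), and vehicle was lower still at 2.70 ± 0.112 RPKM. Hspb8, a small heat shock protein that works with BAG3 in selective autophagy, took the other direction and rose by 2.47, from 22.7 ± 3.39 RPKM to 129 ± 5.73 RPKM. Fresh replicate 1 stood highest in many of these genes, and without it 27 immediate early genes and 14 heat shock genes fell.

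Of 21 NF-kB and cytokine genes, 19 fell and 1, Csf1, rose by 1.59. Ccl2, a monocyte chemokine, was at 173, 303 and 150.0 RPKM in fresh and 4.27, 4.57, 5.07 and 6.15 RPKM in treated libraries and fell by 5.07 (SE 0.20, adjusted p = 2.0e-09). Of 18 JAK-STAT genes, 17 fell. Socs3, the feedback inhibitor of this pathway, was at 651, 243 and 307 RPKM in fresh and 8.43, 8.13, 7.91 and 8.13 RPKM in treated libraries and fell by 5.32 (SE 0.26, adjusted p = 8.4e-09). Of 20 interferon response genes, 19 fell, and Bst2, a membrane tether for enveloped virus, rose by 1.20. Irf1, the transcription factor of this response, fell by 3.86, from 89.4 ± 33.8 RPKM to 4.98 ± 0.561 RPKM. Of the 14 immune cell markers, 6 were measured and 4 of them fell, with a summed level of 17.9 to 31.3 RPKM in fresh, 1.64 to 2.39 in vehicle and 7.06 to 9.62 in treated libraries. Their part in these results was not tested.

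Against this, subunits of the proteasome, the protease of ubiquitin-tagged proteins, rose almost without exception. Of 35 measured genes, 34 rose, with a median of 1.61, compared with 29.8% of all genes. In 33 of them every treated library was above every fresh one, where 61.3% of all genes had no overlap in either direction. The median of vehicle minus fresh was 0.65. With Tubastatin A, 32 of the 35 were higher than with vehicle and 2 lower, against 29.6% and 29.7% of all genes. Psmd2, a scaffold subunit of the regulatory base, was at 119, 132 and 138 RPKM in fresh and 633, 577, 485 and 599 RPKM in treated libraries, against 218, 209 and 185 RPKM in vehicle. The lowest treated library was above every vehicle library, and Psmd2 rose by 2.13 relative to fresh (SE 0.14, adjusted p = 1.1e-07). Psmb5, the catalytic subunit with chymotrypsin-like activity, was at 54.5, 81.7 and 58.8 RPKM in fresh and 243, 262, 273 and 303 RPKM in treated libraries and rose by 2.06 (SE 0.15, adjusted p = 2.9e-07). Psmb3, a core subunit, had the largest change of the list at 2.55. The assembly chaperone Psmg1 did not pass, with 0.19 (adjusted p = 0.24), while vehicle was 1.62 above fresh. The immunoproteasome subunits Psmb8 and Psmb9, counted with the interferon genes, fell by 0.92 and 1.11.

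**Figure D5:**
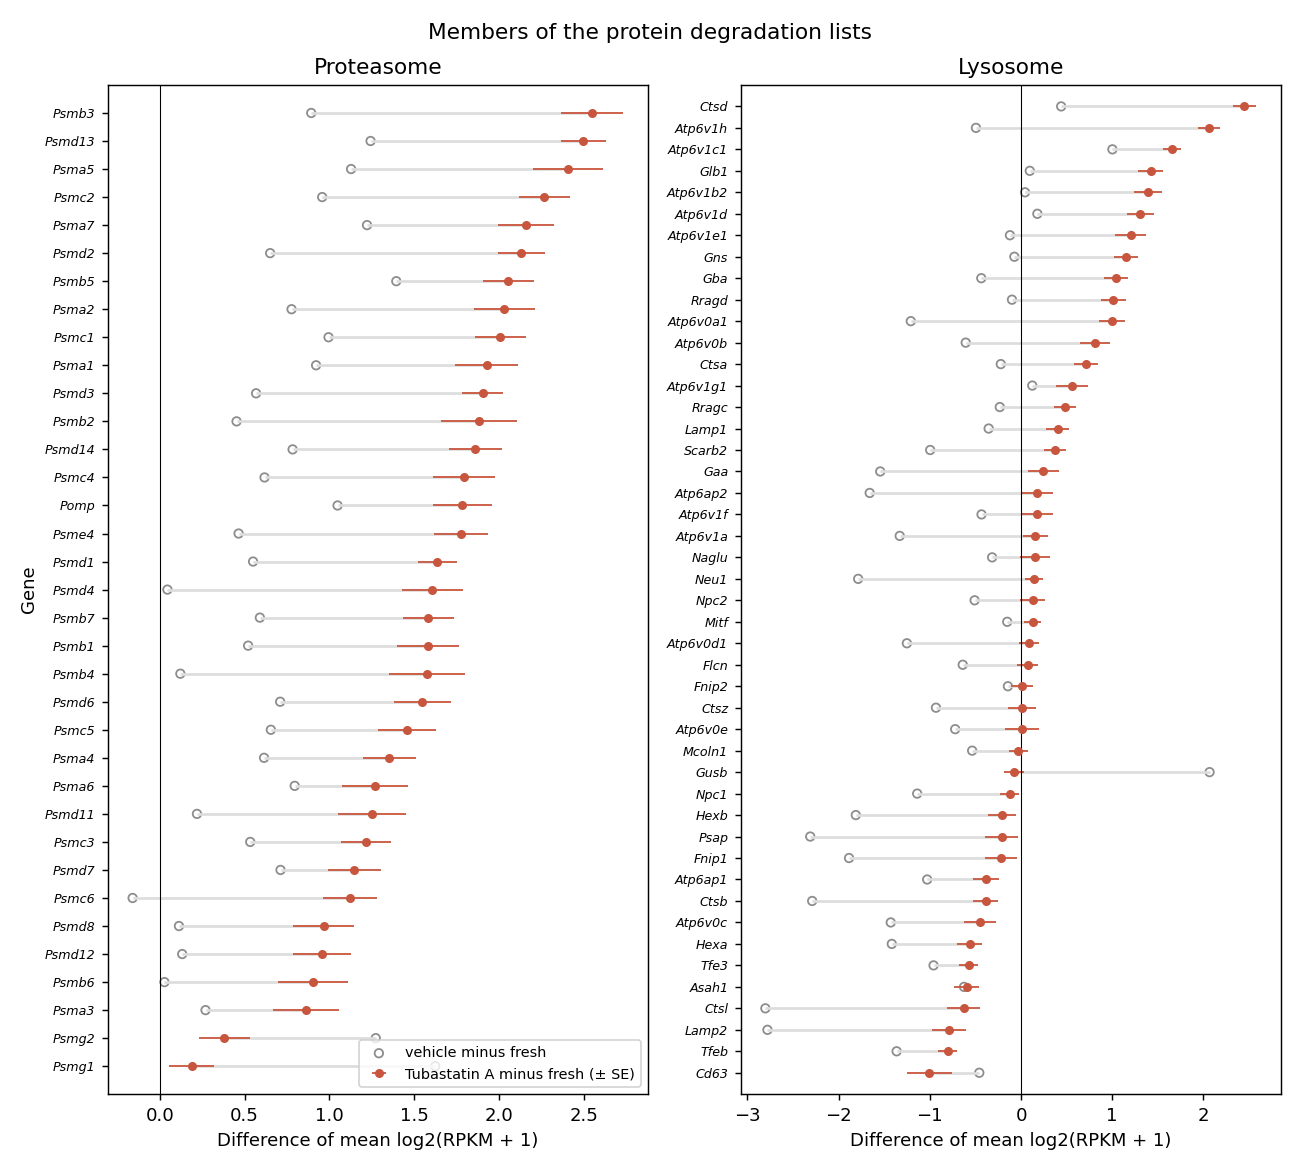
Differences of mean log2(RPKM + 1) from fresh cells for the measured members of the proteasome list (left, 35 genes) and the lysosome list (right, 46 genes), filled points with their SE for Tubastatin A and open points for vehicle. Proteasome members lie right of 0 with Tubastatin A, and lysosome members, under the authors' scaling, lie on both sides, to the right of their vehicle points in most cases.

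The position of lysosomal genes relative to fresh cells depended on the scaling. Of 46 measured lysosome genes, 17 rose and 10 fell relative to fresh under the authors' scaling, with a median of 0.14. With the reads in the table as scaling, 36 rose and 0 fell, with a median of 0.78. Under the authors' scaling 42 were higher and 1 lower with Tubastatin A than with vehicle, against 29.6% and 29.7% of all genes. Ctsd, the aspartic protease cathepsin D, was at 80.1, 90.8 and 74.7 RPKM in fresh and 479.7, 436, 396 and 494 RPKM in treated libraries, against 105, 116 and 112 RPKM in vehicle. Treated libraries lay above all others, and Ctsd rose by 2.45 (SE 0.13, adjusted p = 1.6e-08). Atp6v1h, a subunit of the proton pump that acidifies the lysosome, was at 10.6, 14.6 and 14.3 RPKM in fresh and 61.3, 56.5, 53.2 and 59.6 RPKM in treated libraries and rose by 2.06 (SE 0.12, adjusted p = 3.2e-08). Glb1, the lysosomal beta-galactosidase, rose by 1.42, from 7.47 ± 0.948 RPKM to 21.7 ± 3.23 RPKM. Lamp2, a lysosomal membrane protein, went the other way and fell by 0.79, and Tfeb, the transcription factor of lysosomal genes, fell by 0.80, from 8.29 ± 0.842 RPKM to 4.32 ± 0.206 RPKM. Besides the 2-fold threshold, Lamp2 lost its call in 2 alternative settings and Tfeb in 1. Of 28 autophagy genes, 10 rose and 7 fell, against 29.8% and 35.2% of all genes. With the reads in the table as scaling, 20 rose and 3 fell, whereas with a threshold of 2-fold under the authors' scaling only Wipi2 rose and 4 genes fell. Wipi2, which recruits the conjugation machinery to the growing membrane, rose by 1.30, and Gabarap, an ATG8 protein coupled to that membrane, fell by 1.56. Compared with vehicle, 26 autophagy genes were higher with Tubastatin A and 1 lower, against 29.6% and 29.7% of all genes.

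The promoters of these gene groups were read for short motifs of the transcription factors known to regulate them. TFEB and its relatives bind the CLEAR element, whose core is TCACGTG. This core, searched on both strands in the 250 bases before the start, was in 11 of 36 lysosome promoters (30.6%), against 589 of 9980 promoters of all genes (5.9%), 2 of 23 autophagy promoters (8.7%) and 0 of 28 proteasome promoters. It was also in 4 of 39 S phase promoters (10.3%) and 1 of 46 G2 and M phase promoters (2.17%). Of the 11 lysosome genes with the core, 6 rose relative to fresh and the other 5 did not pass. The sites below, from RefSeq promoters on build GRCm38.p6, written 5′ to 3′ in the direction of the gene with the core in capitals, show 3 genes that rose and Mcoln1, which did not pass (-0.03). A match describes letters and is not evidence of binding.
Ctsd, chr7:142387905-142387941, minus strand: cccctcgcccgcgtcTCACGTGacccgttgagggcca
Glb1, chr9:114401014-114401050, plus strand: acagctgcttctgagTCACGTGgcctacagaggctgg
Atp6v0b, chr4:117887345-117887381, minus strand: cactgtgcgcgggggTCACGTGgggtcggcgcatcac
Mcoln1, chr8:3500432-3500468, plus strand: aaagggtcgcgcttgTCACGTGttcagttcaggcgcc

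Genes of the NRF2 programme, which answers oxidative and electrophilic stress with glutathione and NADPH, were mostly higher as well. Of 24 measured genes of NRF2, glutathione and the pentose phosphate pathway, 18 rose and 3 fell, with a median of 1.29, against 0.91 in vehicle. Under scaling by table reads, 20 rose and 1 fell. Pgd, an NADPH-producing enzyme of the pentose phosphate pathway, was at 6.04, 4.75 and 5.50 RPKM in fresh and 81.5, 78.4, 80.7 and 79.5 RPKM in treated libraries, with 43.7 ± 3.52 RPKM in vehicle. No treated library came near a fresh one, and Pgd rose by 3.66 (SE 0.10, adjusted p = 1.4e-10). G6pdx, the first enzyme of that pathway, was at 4.77, 5.77 and 6.08 RPKM in fresh and 40.0, 40.1, 41.2 and 40.1 RPKM in treated libraries and rose by 2.67 (SE 0.10, adjusted p = 9.5e-10). Gsr, glutathione reductase, rose by 3.59, from 10.5 ± 0.948 RPKM to 138 ± 6.40 RPKM. Nqo1, a quinone reductase, rose by 2.69, from 2.16 ± 1.05 RPKM to 18.9 ± 3.34 RPKM, but vehicle was higher still at 29.1 ± 2.05 RPKM. Hmox1, haem oxygenase, rose by 1.31, from 155 ± 71.9 RPKM to 352 ± 49.8 RPKM. The 3 that fell under the authors' scaling were Nfe2l2, which encodes NRF2 itself, by 0.73, the stress-induced growth inhibitor Osgin1 by 2.74 and the glutathione transferase Gstm1 by 0.98. Besides the 2-fold threshold, Nfe2l2 lost its call in 2 alternative settings, with differences up to -0.05, and Gstm1 in 1. Of 15 genes of iron and haem, 8 rose and 2 fell (13 and 0 when scaled by the reads in the table), among them the ferritin light chain Ftl1 (1.47) and the transferrin receptor Tfrc (2.13).

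The antioxidant response element that NRF2 binds, searched as TGACNNNGC on both strands in the same windows, was in 5 of 19 promoters of this list (26.3%), in 4 of 28 proteasome promoters (14.3%), in 10 of 36 lysosome promoters (27.8%) and in 1405 of all 9980 (14.1%). Proteasome promoters thus held it at the share of all promoters. S phase promoters held it in 6 of 39 cases (15.4%) and G2 and M phase promoters in 10 of 46 (21.7%). The sites of 3 genes that rose are given as before, from RefSeq promoters on build GRCm38.p6, with the motif in capitals, in G6pdx and Gclm as its reverse complement.
Psmb5, chr14:54618019-54618057, minus strand: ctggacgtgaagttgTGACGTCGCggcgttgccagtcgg
G6pdx, chrX:74428914-74428952, minus strand: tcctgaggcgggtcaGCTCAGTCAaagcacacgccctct
Gclm, chr3:122245408-122245446, plus strand: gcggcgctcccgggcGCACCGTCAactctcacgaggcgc

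Of 28 genes of the integrated stress response, which slows translation and raises amino acid supply, 13 rose and 8 fell, and under scaling by table reads 18 rose and 5 fell. Enzymes of amino acid synthesis were among those that rose. Phgdh, the first enzyme of serine synthesis, was at 37.3, 46.2 and 38.3 RPKM in fresh and 207, 197, 181 and 202 RPKM in treated libraries and rose by 2.26 (SE 0.12, adjusted p = 1.6e-08), and Psph, the last enzyme of that path, rose by 2.49. Among regulators, Ppp1r15a, the phosphatase subunit that ends the response, fell by 3.25, from 2106 ± 384 RPKM to 221 ± 36.6 RPKM, the transcription factor Atf4 fell by 0.79, and its relative Atf5 rose by 1.09. Besides the 2-fold threshold, Atf4 lost its call in 2 alternative settings, with differences up to -0.11. Of 22 chaperones and regulators of the endoplasmic reticulum, 12 fell and 2 rose, a balance that was gone when scaled by the reads in the table, with 6 lower and 6 higher. With Tubastatin A, 14 were higher than with vehicle and 0 lower, against 29.6% and 29.7% of all genes. Herpud1, a factor of protein disposal from that compartment, was at 956, 1667 and 1356 RPKM in fresh and 151, 125, 76.8 and 114 RPKM in treated libraries and fell by 3.50 (SE 0.23, adjusted p = 1.0e-07). Hspa5, its main HSP70 chaperone, fell by 2.04, from 7953 ± 1156 RPKM to 1972 ± 486 RPKM, with 314 ± 35.5 RPKM in vehicle.

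Of 16 genes of tubulin, the protein whose alpha form HDAC6 deacetylates, 9 rose and 5 fell, and under scaling by table reads 11 rose and 1 fell. Tuba4a, an alpha-tubulin, was at 14.2, 34.9 and 27.4 RPKM in fresh and 94.3, 97.8, 93.5 and 107 RPKM in treated libraries and rose by 1.99 (SE 0.24, adjusted p = 1.8e-05), with no overlap. Tubb6, a beta-tubulin of regenerating muscle, fell by 1.19, from 961 ± 369 RPKM to 399.7 ± 38.3 RPKM, and Tubb2b fell by 1.92. Reads of tubulin paralogs may not be fully separable. Of 8 subunits of the CCT chaperonin that folds tubulin, 6 rose, and Cct5 and Tcp1 did not pass, though both did without fresh replicate 2, with 0.42 and 0.46, and Tcp1 also without treated replicate 3 (0.38). Among 27 deacetylases and tubulin modifying enzymes, 10 fell and 7 rose, near the 35.2% and 29.8% of all genes. This balance turned to 5 lower and 15 higher when scaled by the reads in the table, against 20.2% and 54% of all genes. Atat1, the acetyltransferase that opposes HDAC6 on alpha-tubulin, was at 6.09, 6.73 and 4.65 RPKM in fresh and 1.29, 1.44, 1.56 and 1.53 RPKM in treated libraries. It fell by 1.46 (SE 0.13, adjusted p = 9.9e-07) with no overlap, and vehicle stood at 3.24 ± 0.260 RPKM. Hdac11 fell by 1.38, and Hdac7 rose by 0.96.

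Genes of the primary cilium, an organelle that quiescent satellite cells carry and HDAC6 helps to take down, passed at about the rate of all genes. Of 46 such genes, 14 rose and 13 fell, against 29.8% and 35.2% of all genes, and under scaling by table reads 31 rose and 5 fell. Arl13b, a small GTPase of the ciliary membrane, was at 41.7, 57.4 and 77.2 RPKM in fresh and 4.48, 4.41, 4.24 and 4.14 RPKM in treated libraries and fell by 3.45 (SE 0.17, adjusted p = 9.2e-09), with 3.70 ± 0.272 RPKM in vehicle. Arl6, a GTPase that recruits the BBSome coat, rose by 1.23, from 9.16 ± 2.33 RPKM to 22.4 ± 2.11 RPKM, and Kif3b, a kinesin of ciliary transport, rose by 1.16. Nedd9, which activates the kinase that starts ciliary resorption, fell by 2.49, from 18.9 ± 4.91 RPKM to 2.47 ± 0.155 RPKM. Of 19 genes known from neurons, 9 rose and 4 fell (12 and 2 with that scaling). Besides Uchl1 they included the kinesin motors Kif1a and Kif5c, which rose by 2.27 and 2.23 from levels of 0.0587 ± 0.0553 RPKM and 0.0791 ± 0.0686 RPKM in fresh cells, and Bex1, which rose by 1.94.

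Of 21 genes of glycolysis, 10 rose and 6 fell, and under scaling by table reads 14 rose and 3 fell. Gpi1, which turns glucose 6-phosphate into fructose 6-phosphate, was at 21.5, 29.3 and 23.3 RPKM in fresh and 105, 105, 107 and 113 RPKM in treated libraries and rose by 2.09 (SE 0.12, adjusted p = 4.3e-08). The enzymes that pay back ATP and pyruvate, Pgk1 and Pkm, rose by 1.10 and 1.12. Slc16a3, the exporter of lactate, fell by 2.46, and Pfkfb3, which makes the activator of phosphofructokinase, fell by 2.20, from 14.7 ± 4.65 RPKM to 2.33 ± 0.166 RPKM. The genes encoded in the mitochondrial genome fell in 11 of 11 cases (6 of 11 when scaled by the reads in the table), with a median of -1.18, against -1.04 in vehicle. CYTB, cytochrome b of complex III, was at 1519, 1691 and 1497 RPKM in fresh and 465, 505, 577 and 389 RPKM in treated libraries and fell by 1.71 (SE 0.18, adjusted p = 6.4e-06). Of 35 nuclear genes of oxidative phosphorylation, 5 rose and 4 fell, and under scaling by table reads 28 rose and 0 fell. Without fresh replicate 1, 5 rose and 11 fell, and without fresh replicate 2, 12 rose and 4 fell. Ndufa4, a small subunit now placed in complex IV, rose by 2.04, from 37.1 ± 14.7 RPKM to 149 ± 15.8 RPKM. Pdk4, a kinase that inhibits pyruvate dehydrogenase in mitochondria, fell by 2.43, from 141 ± 29.0 RPKM to 25.2 ± 3.51 RPKM.

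The balance of genes of protein synthesis depended on the scaling and on single fresh libraries. Of 35 ribosome biogenesis genes, 11 rose and 5 fell, with a median of 0.01 against 0.89 in vehicle. The 11 compare with 29.8% of all genes, and under scaling by table reads 25 rose and 2 fell, with a median of 0.68. Without fresh replicate 1, 10 of them rose and 13 fell. Polr1b, a subunit of RNA polymerase I, rose by 1.16, and Nop58, a box C/D snoRNP protein, fell by 1.85. Of 47 cytosolic ribosomal proteins, 8 fell and 0 rose, but 0 fell and 24 rose when scaled by the reads in the table. Without fresh replicate 1, 20 of them fell, and without fresh replicate 2, 2 fell and 5 rose. Of 23 translation factors, 11 fell and 6 rose, which likewise turned to 3 and 10 under that scaling. Eif1a, which scans for the start codon, fell by 2.12 under the authors' scaling, from 211 ± 41.8 RPKM to 47.0 ± 2.44 RPKM.

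A set of genes stood near the fresh level with Tubastatin A though vehicle was far from it. These were chosen for a difference from fresh under 0.25 and the largest vehicle minus fresh differences, so the pattern is a description. Besides Mcm2, Dut, which clears dUTP before replication, was at 10.5, 14.6 and 8.68 RPKM in fresh and 10.6, 12.2, 12.5 and 12.8 RPKM in treated libraries, against 56.5, 68.5 and 68.7 RPKM in vehicle. Its difference from fresh was 0.11, and 0.30 (SE 0.12, adjusted p = 0.046) without fresh replicate 2. Tfdp1, the partner of E2F factors, was at 24.4, 33.8 and 30.6 RPKM in fresh, 30.6, 32.3, 32.3 and 31.8 RPKM in treated and 118, 129.9 and 119 RPKM in vehicle libraries. In both, fresh and treated ranges overlapped while vehicle stood above. Sqstm1, the autophagy receptor p62, went the other way in vehicle: it was at 1178, 1902 and 1751 RPKM in fresh and 1541, 1509.7, 1441 and 1624 RPKM in treated libraries, against 172, 177 and 184 RPKM in vehicle. Gabarapl1, an ATG8 protein, was at 161, 285 and 271 RPKM in fresh, 230.2, 240.3, 256 and 255 RPKM in treated and 28.7, 34.0 and 37.7 RPKM in vehicle libraries. Psap, the precursor of lysosomal saposins, was at 455 ± 53.6 RPKM in fresh, 398 ± 84.3 RPKM in treated and 90.5 ± 1.48 RPKM in vehicle libraries. A small difference of this kind depends on the scaling, since Sqstm1 and Psap were 0.64 and 0.47 above fresh when scaled by the reads in the table.

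Another set stood near the fresh level with vehicle but not with Tubastatin A, again chosen for these values. Among those higher with Tubastatin A, Mgst1, a membrane glutathione transferase, was at 11.0, 18.6 and 11.2 RPKM in fresh, 80.2, 80.9, 79.5 and 100.0 RPKM in treated and 12.7, 14.7 and 11.7 RPKM in vehicle libraries. Mllt11, a small protein that binds transcription regulators, was at 4.09, 7.72 and 5.49 RPKM in fresh, 83.2, 83.4, 54.3 and 84.5 RPKM in treated and 6.46, 6.53 and 6.17 RPKM in vehicle libraries. In both genes the treated libraries stood above all others. Hgs, which sorts ubiquitin-tagged cargo into endosomes, and Pfn2, an actin-binding protein, were 2.09 and 2.14 above fresh, with 0.47 and 0.16 in vehicle minus fresh. Among those lower with Tubastatin A, Ltbp1, which stores latent TGF-beta in the matrix, was at 61.4, 30.8 and 58.2 RPKM in fresh, 6.23, 6.01, 3.59 and 4.06 RPKM in treated and 46.9, 34.6 and 24.4 RPKM in vehicle libraries. Anxa1, a membrane-binding annexin, was at 72.4 ± 23.6 RPKM in fresh, 10.3 ± 1.68 RPKM in treated and 53.1 ± 4.49 RPKM in vehicle libraries. Idh2, the NADP-dependent isocitrate dehydrogenase of mitochondria, was at 148 ± 13.7 RPKM in fresh, 28.9 ± 1.77 RPKM in treated and 116 ± 8.89 RPKM in vehicle libraries. Acta2, the actin of smooth muscle, was at 220.0, 233 and 183 RPKM in fresh, 10.7, 60.8, 10.4 and 10.3 RPKM in treated and 174, 239 and 223 RPKM in vehicle libraries, with treated replicate 2 above the other 3.

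Markers of other muscle-resident cells were lower in treated than in fresh libraries, as were the groups that fell. Of 12 endothelial markers, 12 fell, and their summed level was 57.6 to 71.9 RPKM in fresh, 5.74 to 8.42 in vehicle and 8.31 to 9.30 in treated libraries. Of 10 pericyte and smooth muscle markers, 10 fell, from a summed 246.7 to 301.8 RPKM in fresh to 14.8 to 66.0 in treated libraries, with 177.9 to 243.1 in vehicle. Acta2 alone made up most of this sum in fresh and vehicle libraries. In vehicle minus fresh, 8 of these 10 markers were also lower, beside 35% of all genes. Of 8 tenocyte markers, 7 fell, from 53.8 to 99.2 RPKM in fresh to 5.55 to 13.0 in treated libraries, with 66.6 to 78.1 in vehicle. In vehicle minus fresh, 7 of these 8 markers were lower and 1 was higher, by 2.76. Of 6 measured Schwann cell markers, 6 fell, from 282.6 to 340.7 RPKM in fresh to 46.1 to 52.3 in treated libraries, with 141.6 to 146.7 in vehicle. Both measured erythroid markers, globins whose copies may share reads, fell from a summed 7.24 to 29.5 RPKM to 0.0262 to 0.130. Pecam1, the CD31 of the sort and the defining endothelial marker, was at 4.19, 5.69 and 6.96 RPKM in fresh and 0.190, 0.240, 0.248 and 0.240 RPKM in treated libraries. The part of other cell types in the quiescence, matrix and inflammatory results was not tested.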

How the data were processed

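RNA of sorted mouse muscle stem cells was sequenced in 10 libraries, 3 fresh, 3 vehicle and 4 Tubastatin A, each from 1 animal, per the labels. Their protocols give cDNA synthesis from 5 ng RNA (SMART-Seq v4), Ovation Ultralow libraries and paired 150-bp reads. The authors worked on the build mm10 with edgeR, STAR, Trim Galore and Subread's featureCounts, per the submitters' processing notes, which name no version. The authors deposited a table of RPKM for 12803 genes, which is the only unit used.

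For 12405 genes (96.9%), RPKM times gene length and a library factor lay within 0.05 of a whole number of reads in all 10 libraries. No deposited RPKM value was 0: 2364 values of 759 genes stood at a floor in place of zero, and these are not measured levels. Symbols that occur more than once numbered 7.

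The fit used log2(RPKM + 1) in limma 3.58.1 (R 4.3.3) with a variance trend, 1 model for the 3 groups, and no filter; an adjusted p (Benjamini-Hochberg) under 0.05 counts as passed. On simulated data for Tubastatin A against fresh with 12403 genes, the fit found 89 of 100 genes changed by 1 log2 unit and 100 of 100 changed by 2, with 8 false calls. The simulation gave all genes and groups the same relative spread between replicates and left most genes unchanged. In the data, fresh libraries varied more and 64.9% of genes passed, so these rates need not hold there. Replicates differed beyond counting noise.

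The comparison, the 58 gene lists and the motifs were chosen with earlier results of these data known, so no list is independent evidence of its direction. Genes were named by rule: the 10 highest and 10 lowest changes among genes that passed, averaged 4 or more on the log2(RPKM + 1) scale and had no overlap between the groups, up to 4 members per list with the lowest p, and genes far from fresh in only 1 of the cultures; Hdac6, Pax7, Myod1, Myog, Mki67, Ccnd1, Calcr, Spry1, Fos, Uchl1 and Cdkn1c were always eligible. Genes named outside the rule were chosen after their values were seen. Use of strand is not given in the sources used here, so reads of overlapping or near-identical genes may not be separable. Alternatives were other scalings, filters, pseudocounts of 0.1 and 5, sample quality weights, limma's voom on recovered reads, a fit on 2 groups, a replicate block and each library left out. Promoter sequences came from RefSeq (GRCm38.p6).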

Additional observations from a re-analysis of the deposited data

Results flagged for a closer look

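In 18 of the 166 genes named here, 1 of the 4 Tubastatin A libraries stood far from the other 3, its gap to the nearest of them, as a share of the group's whole range, being above Dixon's 95% critical value for 4 samples; chance flags about 1 in 20 groups. Replicate 2 was the library that stood apart in 8 of them. It was the highest in Myog at 195.2 RPKM, in Acta1 at 311 RPKM, in Acta2 at 60.75 RPKM, in Atp2a1 at 10.9 RPKM, in Mef2c at 0.3896 RPKM, in the secreted C1qtnf3 at 60.65 RPKM, in the mitotic cyclin Ccnb2 at 2.204 RPKM and in Mki67 at 0.178 RPKM. Most of these encode muscle actins, a calcium pump of muscle fibres or myogenic factors.

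Replicate 3 stood apart in 6 genes. It was the lowest in the calcitonin receptor Calcr at 1.841 RPKM, in Cd34 at 2.6 RPKM, in Mllt11 at 54.32 RPKM and in Tcf3 at 46.9 RPKM, and the highest in G6pdx at 41.19 RPKM and Hdac7 at 4.3 RPKM. In G6pdx the other 3 lay at 40.0 to 40.1 RPKM. Replicate 4 was the highest in Mgst1 at 99.95 RPKM and Atp6v0b at 124.8 RPKM, and in Pfn2 at 44 RPKM. Replicate 1 was the lowest in the endothelial marker Pecam1 at 0.1905 RPKM.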

How the results depend on the processing

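The number of genes that passed between Tubastatin A and fresh cells was 8314 and stayed within 1.5 times of this in all but 2 alternatives: 3712 among genes whose log2(RPKM + 1) averaged 3 or more, which tests fewer genes, and 3062 with a 2-fold threshold. Under the same 2 settings, added after seeing the data, Tubastatin A against vehicle gave 3578 and 2402 in place of 7594, and vehicle against fresh 3997 and 3916 in place of 8580; with each library left out, these gave 6588 to 8341 and 7868 to 8912. For Tubastatin A against fresh, leaving out each library gave 7768 to 8540, and 41 to 46 lists with more lower than higher members, against 43. The replicate block gave 7888. Same-numbered fresh and treated libraries deviated with r of 0.236, -0.105 and 0.029, and differently numbered ones with -0.322 to 0.467. With so few libraries, these values cannot decide whether the numbers pair them. Of 3270 values of named genes under alternatives, 3175 kept the call, 41 lost it, 41 gained it and 13 changed sign with a call in either fit. The 3175 include values that changed sign while passing in neither fit. Myod1, for example, ranged from -0.887 to 0.4246.

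Scaling by reads in the table gave 6916 genes higher and 2590 lower, and by reads without mitochondrial and the 10 most abundant genes 6497 and 2795, against 3811 and 4503. They turned 8 lists, whose lower members then numbered 0 and 0 (ribosomal proteins), 3 and 4 (translation factors), 4 and 5 (cholesterol and fatty acid synthesis), 4 and 4 (hedgehog), 5 and 5 (deacetylases and tubulin modification), 10 and 10 (p53 targets), 3 and 3 (BCL2 family) and 7 and 9 (Polycomb). The same 2 scalings turned Hdac6 to 0.41 and 0.32, Klf10 to 0.41 and 0.31, Mcoln1 to 0.59 and 0.50, Mef2a to 0.48 and 0.40, Nid1 to 0.53 and 0.44 and Sqstm1 to 0.64 and 0.54, and the first turned Psap to 0.47. Upper quartile scaling turned ribosomal proteins (1 lower) and translation factors (8 lower). The 2-fold threshold turned autophagy (1 higher) and primary cilium (2 higher). Ribosome biogenesis turned with quality weights (12 higher) and without fresh replicate 1 (10 higher), ribosomal proteins without fresh replicate 2 (2 lower, in a range of 2 to 20 lower over all libraries left out), and oxidative phosphorylation with voom and without fresh replicate 1 or 3 (5 higher in each). The causes were not tested. Levels near 1 read, 0.016 to 0.0339 RPKM at 1 kb, cannot be resolved.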

Other observations

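Genes of the circadian clock were low in treated cells. Of 18 measured members, 13 fell relative to fresh, with a median of -1.64 and -1.95 in vehicle minus fresh. Nfil3, a repressor of clock-controlled genes, was at 319, 263 and 228 RPKM in fresh and 8.96, 9.75, 6.13 and 8.93 RPKM in treated libraries and fell by 4.85 (SE 0.16, adjusted p = 4.0e-10), with no overlap. Dbp, an output activator of the clock, fell by 2.91, from 38.9 ± 12.7 RPKM to 4.17 ± 0.622 RPKM, and the negative regulator Per1 fell by 3.07. The hour of isolation is not given in the sources used here, so time of day and treatment cannot be told apart. Of 28 splicing factors, 21 fell and 2 rose, and under scaling by table reads 13 fell and 8 rose. Srsf5, an SR protein, was at 263, 363 and 311 RPKM in fresh and 80.1, 88.5, 92.6 and 99.5 RPKM in treated libraries and fell by 1.77 (SE 0.13, adjusted p = 3.0e-07), and the kinase Clk1, which phosphorylates SR proteins, fell by 2.38.

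Imprinted genes tied to growth control and quiescence fell in 13 of 16 cases and 1, Peg10, rose by 0.66. Dcn, a matrix proteoglycan counted in that list, was at 24.3, 33.6 and 17.5 RPKM in fresh and 0.393, 0.349, 0.806 and 0.625 RPKM in treated libraries and fell by 4.05 (SE 0.20, adjusted p = 1.1e-08); it is also a marker of connective tissue cells. Peg3, a zinc finger protein of stem cells, fell by 2.03, from 22.5 ± 6.31 RPKM to 4.69 ± 1.08 RPKM. Of 11 histone variant genes, 9 fell (4 when scaled by the reads in the table), among them H3f3b, which encodes a replacement form of histone H3, by 1.70, from 1297 ± 459 RPKM to 384 ± 38.7 RPKM, and H2afy2 rose by 0.45. Of 25 Polycomb and chromatin genes, 13 fell and 3 rose, a direction that turned when scaled by the reads in the table. Suv39h1, a methyltransferase of heterochromatin, fell by 2.01, and Cbx2, a Polycomb reader, rose by 2.12, from 0.603 ± 0.638 RPKM to 5.68 ± 0.643 RPKM.

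Among 24 p53 targets, 12 fell and 9 rose, and this balance also turned with that scaling. Tigar, a phosphatase that diverts sugar into the pentose phosphate pathway, was at 0.925, 0.833 and 0.889 RPKM in fresh and 10.7, 10.5, 9.01 and 11.3 RPKM in treated libraries and rose by 2.59 (SE 0.11, adjusted p = 4.3e-09), while Fas, a death receptor, fell by 3.79, from 206 ± 84.3 RPKM to 13.1 ± 0.718 RPKM. In the BCL2 family, Mcl1, a short-lived inhibitor of apoptosis, fell by 3.17, from 549 ± 77.3 RPKM to 60.0 ± 6.50 RPKM, and the pore-forming Bax rose by 1.22, from 45.2 ± 8.07 RPKM to 106 ± 9.07 RPKM. Of 18 FoxO factors and targets, 11 fell and 3 rose (8 and 5 with that scaling), and Cat, the catalase that removes hydrogen peroxide, rose by 1.53, from 46.4 ± 3.26 RPKM to 136 ± 9.82 RPKM.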
